A study of Mus musculus with 12 samples.

Results

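Control bone marrow plasmacytoid dendritic cells (BM pDCs) were compared with control CD115- common dendritic cell progenitors (CD115- CDPs), a progenitor population with pDC potential. The paper also names common lymphoid progenitors as a major precursor of pDCs. The comparison used the 2 control BM pDC libraries and the 2 control CD115- CDP libraries, 4 of the 12 RNA-seq libraries of the study. All 4 came from Hdac3 fl/fl mice on a C57BL/6 background without the CreERT2 transgene, injected intraperitoneally with tamoxifen for 5 days, and the cells were sorted 7 days later. Age and sex of the mice are not stated. Because the controls carry the floxed Hdac3 alleles and received tamoxifen, they are not untreated wild-type mice. BM pDCs were gated, among other markers, as CD45+ CD11b- CD11c intermediate PDCA-1+ B220+ Siglec H+ cells, and CDPs as lineage-negative, CD117 intermediate, Flt3+, CD127-, CD11c- cells, of which the CD115- fraction was taken. Whether the libraries of a population came from separate mice is not stated, so the spread between them may be technical.

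Plasmacytoid dendritic cells are the dendritic cells that sense viral nucleic acid in endosomes and release type I interferon. Their identity rests on the E protein TCF4, which is held in check by the ID proteins that sequester E proteins and, where ID2 prevails, leave the way open to conventional dendritic cells (cDCs). CDPs are cycling progenitors that can give rise to both kinds of dendritic cell, and the fraction without CD115, the receptor for M-CSF, is the one richer in pDC potential. Where pDCs arise from CDPs, that step is therefore one from a dividing, uncommitted progenitor to a largely resting effector cell.

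The pDC and CDP values were deposited in separate tables. CDPs were lysed in a buffer for small cell numbers and pDCs in Trizol, and library preparation followed Illumina or BGI protocols without a statement of which sample had which. Population, lysis and processing thus cannot be told apart, no p value was computed across the tables, and differences are descriptions of these libraries. The 14473 genes listed in both tables were scaled to a total of 1000000 in each library (rescaled FPKM, where FPKM counts fragments relative to transcript length and library size). A difference is the mean log2(rescaled FPKM + 1) of pDCs minus that of CDPs. A gene was counted as higher in pDCs where its lower pDC library exceeded its higher CDP library at least 4-fold on this scale, and as lower where the nearest libraries were as far apart the other way. Genes with at least 1 rescaled FPKM in both libraries of a population were compared, 11495 in all. Between replicates, the median absolute log2 difference was 0.0921 in pDCs and 0.237 in CDPs, and 2 and 13 genes were 4-fold or more apart. The pDC libraries held 18356559 and 18117748 expected counts, while the depth of the CDP libraries is not known.

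Of the 11495 genes, 965 (8.39%) were counted higher and 568 (4.94%) lower in pDCs. The median difference over all genes was −0.04. In FPKM as deposited, without rescaling, the counts were 677 higher and 624 lower, with the median at −0.27. The share of higher genes among those counted was thus 62.9% after rescaling and 52% before it. *Siglech*, *Spib*, *Ccr9* and *Klk1* stood far above the diagonal of the scatter of all genes, and *Cd34*, *Myc*, *Id2* and *Batf3* far below it. *Irf8* and *Hdac3* lay near it. Of 106 genes counted among those chosen for naming, 83 were counted under every processing alternative that compared them and 23 missed the gap in 1 to 3 of these.

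**Figure D1:**
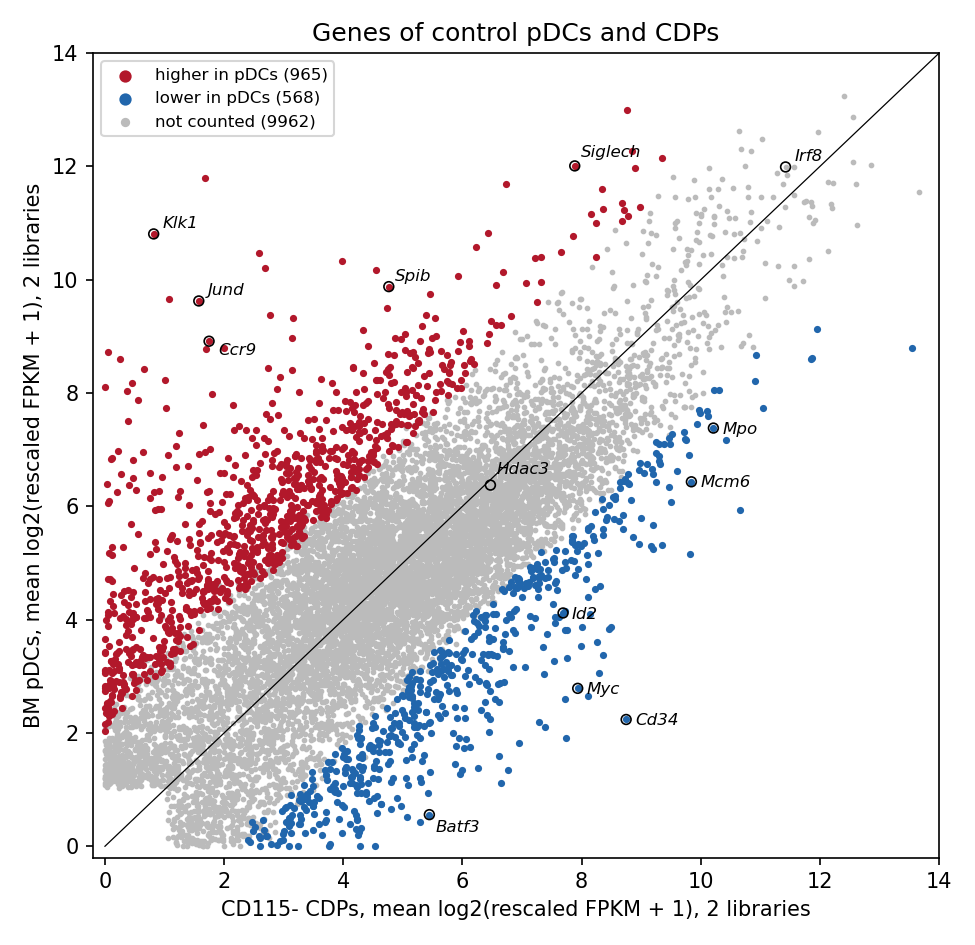
Each point is a gene, placed by its mean log2(rescaled FPKM + 1) over 2 CD115- CDP libraries (horizontal) and 2 BM pDC libraries (vertical). Red points are the 965 genes counted higher and blue points the 568 counted lower in pDCs, grey points are the remaining genes, and the line marks equal levels.

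The markers separated the populations as labelled, with *Tcf4* abundant in both. *Siglech*, which encodes the surface lectin Siglec H used to sort pDCs, was at 4093 and 4139 rescaled FPKM in pDCs, against 318 and 174 in CDPs, a difference of 4.12. Both CDP libraries already held *Siglech* transcripts well above the 6.81 and 2.88 of control LMPPs, the lymphoid-primed multipotent progenitors of a separate table. *Tcf4* was at 519 and 553 in pDCs, against 104 and 129.9 in CDPs, and with 1.99 on the log2 scale between the nearest libraries it fell just short of the 4-fold gap. *Batf3*, a transcription factor gene of type 1 cDCs (cDC1s), was near the bottom of the scale in pDCs at 0.172 and 0.849, against 42 and 43.1 in CDPs (−4.89). *Mpo*, the myeloperoxidase gene of myeloid progenitors, was at 164 and 167 in pDCs and 1015 and 1381 in CDPs (−2.83). For each of these genes the libraries of the populations did not overlap. This was common, holding for 4984 of all 11495 genes with pDCs higher and for 5252 with pDCs lower.

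Of the genes behind the gates, *Bst2*, which encodes PDCA-1, was at 4538 and 4522 in pDCs, against 785 and 535 in CDPs. *Itgax* (CD11c) measured 219 and 189.8 in pDCs and 39.9 and 26.2 in CDPs, and *Itgam* (CD11b) 8.78 and 5.94 and 57.2 and 39.2. *Ptprc*, the gene of CD45 and its B220 isoform, was higher in pDCs at 461 and 465, against 144 and 149.8 in CDPs, without reaching the gap. On the progenitor side, *Kit* (CD117) was at 3.81 and 3.27 in pDCs, against 31.6 and 39.5 in CDPs, whereas *Flt3* stayed high in both, at 291 and 267 and 631 and 577. These genes encode the proteins used for sorting, so their order restates the gates. Transcripts did not always follow the gated protein. *Csf1r*, which encodes CD115, was at 16.6 and 10.2 in pDCs, against 249 and 177 in the CDPs sorted as CD115-. *Il7r*, which encodes CD127, was at 177 and 178 in pDCs and still at 26.6 and 19.5 in CDPs sorted as CD127-.

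**Figure D2:**
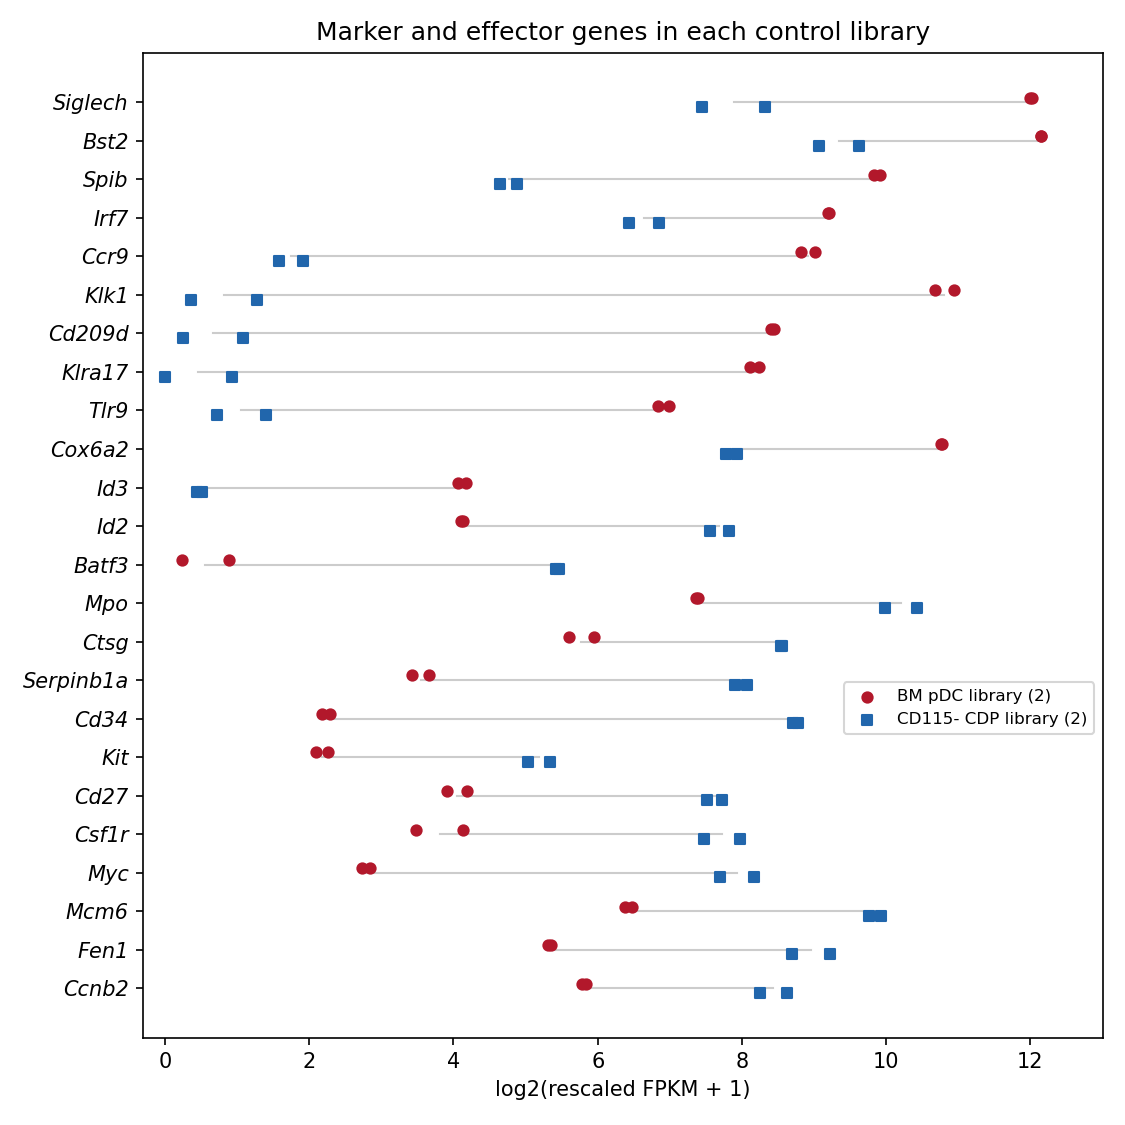
Level of 24 genes in each control library as log2(rescaled FPKM + 1), with red circles for the 2 BM pDC libraries, blue squares for the 2 CD115- CDP libraries and a grey line joining the means. The libraries of the populations do not overlap for any of these genes, as for 4984 genes higher and 5252 lower in pDCs of all 11495. Replicates mostly lie close together, with a wider spread in CDPs for *Siglech* and for low genes such as *Klk1* and *Klra17*.

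The surface and enzyme genes of pDCs had the highest median among the lists plotted. Of 26 members compared, 19 were counted higher and 0 lower in pDCs, with a median difference of 3.35. *Klk1*, a tissue kallikrein serine protease gene, had the widest gap of all genes, with 1634 and 1961 in pDCs, against 0.286 and 1.41 in CDPs (9.99). *Cd209d*, a C-type lectin gene of the SIGN family, was at 346 and 338 in pDCs, against 1.11 and 0.186 in CDPs (7.76). *Klra17*, which encodes the inhibitory receptor Ly49Q of mouse pDCs, was at 277 and 300.0 in pDCs, against 0.895 and 0 in CDPs. *Ccr9*, the receptor gene for the gut and thymus chemokine CCL25, was at 449 and 515 in pDCs, against 1.99 and 2.77 in CDPs (7.17). These 4 genes were close to absent from the progenitors. Other members were already abundant there. *Ly6d*, a surface gene of the lymphoid path to pDCs chosen after its values were seen, was at 3254 and 3650.2 in pDCs, against 1034 and 856 in CDPs. *Cd7*, chosen likewise, was at 1896 and 1847 in pDCs, against 509.5 and 280.4 in CDPs. *Gzmb*, a further list member, was not listed in both tables.

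Promoters of this list were read for the E box, the site bound by E proteins such as TCF4. The list was taken because its median difference was the highest among the lists plotted. The windows ran from 250 bases before to 50 bases after each start in RefSeq (GRCm38.p6), and the letters CAGNTG were searched on both strands. They were in 16 of 27 windows of the list (59.3%, 20 of 26 genes having a window), against 43.9% of the 11870 windows of all genes compared. The share was 62.5% of 8 windows for MHC class II and 26.7% of 15 windows for the transcription factors of pDCs, so it did not follow the order of the lists. Among genes counted higher in pDCs 45.7% of windows held it, and among those counted lower 44.6%. The form CACCTG, which is contained in CAGNTG, was in 37% of the list's windows and 17.4% of all. A match is a run of letters and no evidence of binding. In the 4 windows below, each 300 bases and read 5′ to 3′ on the gene's own strand, capitals mark CAGNTG or its complement. *Klk1* and *Ccr9* are members of the list, *Siglech* comes from the gate genes and *Spib* from the transcription factors. They were picked by hand and not by rank of gap, and all 4 hold a match, so they do not stand for the windows of the list.
Siglech, chr7:55767934-55768233, plus strand: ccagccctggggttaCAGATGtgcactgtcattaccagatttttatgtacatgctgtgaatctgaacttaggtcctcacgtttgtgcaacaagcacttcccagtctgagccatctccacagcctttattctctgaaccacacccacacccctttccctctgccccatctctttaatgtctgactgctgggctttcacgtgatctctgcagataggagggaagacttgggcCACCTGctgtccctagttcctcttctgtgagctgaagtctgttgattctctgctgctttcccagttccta
Klk1, chr7:44225110-44225409, plus strand: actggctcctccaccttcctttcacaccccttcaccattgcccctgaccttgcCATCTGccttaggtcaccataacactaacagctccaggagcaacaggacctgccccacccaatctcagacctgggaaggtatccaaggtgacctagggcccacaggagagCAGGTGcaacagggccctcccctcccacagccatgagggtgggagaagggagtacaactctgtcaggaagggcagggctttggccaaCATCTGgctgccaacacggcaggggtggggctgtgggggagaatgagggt
Ccr9, chr9:123766961-123767260, plus strand: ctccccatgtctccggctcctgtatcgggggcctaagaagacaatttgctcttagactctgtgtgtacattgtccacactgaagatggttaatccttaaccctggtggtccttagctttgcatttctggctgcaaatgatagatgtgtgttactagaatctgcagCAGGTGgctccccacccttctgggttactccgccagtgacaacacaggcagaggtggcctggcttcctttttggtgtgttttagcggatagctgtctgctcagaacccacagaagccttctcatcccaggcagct
Spib, chr7:44532022-44532321, minus strand: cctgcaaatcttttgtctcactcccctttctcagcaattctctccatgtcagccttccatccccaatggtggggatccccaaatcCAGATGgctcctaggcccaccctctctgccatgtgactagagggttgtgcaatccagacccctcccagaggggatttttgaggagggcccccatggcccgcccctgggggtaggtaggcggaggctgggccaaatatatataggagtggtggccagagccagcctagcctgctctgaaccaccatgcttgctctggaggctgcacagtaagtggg
*Klk1* had 3 matches in its window, *Siglech* 2, *Ccr9* 1 and *Spib* 1.

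Among transcription factors of pDCs, 2 of 10 were counted higher and 0 lower, against 8.39% and 4.94% of all genes. Their median was 1.74. *Spib*, an Ets factor gene needed for pDC development, was at 966 and 913 in pDCs, against 28.6 and 23.9 in CDPs (5.11). *Irf7*, the factor that drives type I interferon genes, was at 592 and 583 in pDCs, against 114 and 85.5 in CDPs (2.56). The remaining members were well expressed in both populations and differed less. *Runx2*, a Runx factor gene of pDC homing, was at 754 and 775 in pDCs, against 238 and 217 in CDPs, and *Bcl11a*, which acts with TCF4, at 407 and 389, against 114 and 123. *Irf8*, required in CDPs and dendritic cells alike, was at 4199.5 and 3932 in pDCs and 3037 and 2476 in CDPs (0.57). *Etv6*, an Ets repressor gene, differed least, at 66.4 and 67.5 in pDCs and 55.3 and 66.3 in CDPs (0.14), with its nearest libraries almost equal.

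E proteins and their inhibitors split. *Id2*, the inhibitor tied to cDC fate, was at 16.2 and 16.5 in pDCs, against 186 and 226 in CDPs (−3.57). *Id3* ran the other way at a low level, with 17.1 and 15.7 in pDCs and 0.430 and 0.353 in CDPs (3.64). *Tcf12*, which encodes the E protein HEB, was at 112 and 104 in pDCs, against 19.4 and 17 in CDPs (2.51). *Tcf3*, the gene of E2A, was at 95.9 and 82.5 in pDCs and 82.3 and 62.7 in CDPs, a difference of only 0.30. *Cbfb*, the shared partner of the Runx factors, was at 107 and 103, against 53.8 and 53.3, below the gap.

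cDC fate factors were divided, with 4 of 12 counted higher, 4 lower and a median of −1.06. Besides *Batf3* and *Id2*, the cDC1 factor gene *Nfil3* was lower in pDCs at 16.8 and 15.6, against 112 and 105 in CDPs, and *Spi1*, the gene of the myeloid factor PU.1, was at 125 and 98.4, against 683 and 583. Both were chosen after their values were seen. In contrast, *Irf4*, a factor gene of type 2 cDCs (cDC2s), was at 26.4 and 24 in pDCs, against 0.824 and 0.577 in CDPs (3.95). *Klf4*, also needed by cDC2s, was at 225 and 189 in pDCs, against 12.4 and 14 in CDPs (3.87). *Relb* and *Bcl6*, chosen after their values were seen, were the other members counted higher (2.41 and 2.51). *Zbtb46*, a factor gene that marks cDCs and their precursors, was low in both populations, at 3.14 and 2.61 in pDCs and 7.88 and 9.08 in CDPs.

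Nucleic acid sensing genes showed 3 of 15 counted higher and 0 lower, against 8.39% and 4.94% of all genes. Their median was 0.61. *Tlr9*, the endosomal receptor gene for unmethylated DNA, was at 126 and 113 in pDCs, against 1.63 and 0.651 in CDPs (5.85). *Tlr7*, its counterpart for single-stranded RNA, was at 154 and 169 in pDCs, against 16.7 and 14.4 in CDPs (3.29). Not every receptor gene was counted. *Tlr3*, the receptor gene for double-stranded RNA, chosen after its values were seen, was at 9.14 and 9.25 in pDCs and 1.74 and 2.49 in CDPs (1.72). *Irak1*, a kinase gene downstream of them, was the only other member counted, at 122 and 116, against 16.3 and 15.7 (2.82). *Unc93b1*, which carries these receptors to endosomes, was at 1505 and 1476 in pDCs and already at 936 and 807 in CDPs. *Myd88*, their common adaptor, was at 99.5 and 92.8 in pDCs and 84.3 and 83.8 in CDPs (0.19).

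Interferon-stimulated genes had a median of 0.20, which turned to −0.03 in FPKM as deposited. Of 21 compared, 1 was counted higher and 3 lower, against 8.39% and 4.94% of all genes. *Stat2*, a component of the interferon signalling complex, was counted higher (199.6 and 193 in pDCs, against 38.5 and 32.9 in CDPs). *Rtp4* was counted lower (2.09 and 2.02 in pDCs, against 35 and 45 in CDPs), as were *Ifitm3*, a restriction factor gene, and *Oas2*, a sensor gene of double-stranded RNA (−2.36 and −2.37).

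Among antigen presentation genes, MHC class II had 2 of 10 counted higher and 1 lower, against 8.39% and 4.94% of all genes. Its median was 1.36. *H2-Aa* was at 2279.8 and 2557 in pDCs, against 354 and 299.6 in CDPs (2.89), and *H2-Eb1*, the other class II chain counted, at 578 and 603, against 105 and 84.1. *Cd74*, the invariant chain gene, was among the most abundant of both populations, at 6457 and 6131 in pDCs and 1503 and 1694 in CDPs. *H2-Ob*, a chain of the H2-O inhibitor of peptide loading, was the member counted lower, at 14.5 and 11.8 in pDCs, against 136 and 95.9 in CDPs (−3.03). MHC class I and immunoproteasome genes had 0 of 11 counted in either direction and a median of −0.38. *Psmb8*, an immunoproteasome subunit gene, differed most in that list, at 443 and 461 in pDCs, against 1683 and 1596 in CDPs (−1.85).

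Of 11 lysosomal proteases compared, 2 were counted higher in pDCs and 0 lower, against 8.39% and 4.94% of all genes. Their median was 1.09. *Ctsl* (cathepsin L) was at 1242 and 1338 in pDCs, against 19.4 and 11.2 in CDPs (6.36), and *Ctsb* (cathepsin B) at 4023 and 3981, against 507 and 444 (3.07). *Cst3*, the cathepsin inhibitor cystatin C, was at 1474 and 1433 in pDCs and 5467 and 3667 in CDPs, the opposite direction to the cathepsins counted, with a difference of −1.62 that missed the gap. In the ER secretory and unfolded protein response list only *Atf4* of 20 was counted, a share of 5% that is below the 8.39% of all genes (471 and 489 in pDCs, against 85.1 and 54.6 in CDPs). *Xbp1*, the factor gene of secretory cells, was at 455 and 473 in pDCs and 146 and 136 in CDPs (1.71), and the list's median was 0.44.

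Chemokine receptor and homing genes had 4 of 13 counted higher and 2 lower, with a median of 1.03. *Cxcr3*, an inflammatory homing receptor gene, was at 168 and 155 in pDCs, against 5.77 and 1.97 in CDPs (5.18). *Cxcr4*, which retains cells in the marrow, was at 431 and 430.3 in pDCs, against 26.6 and 37.8 in CDPs (3.72). *Ccr7*, the lymph node homing receptor gene, ran the other way at 4.32 and 3.27 in pDCs, against 95.5 and 79 in CDPs (−4.20). Growth factor receptors had 2 of 16 counted higher and 2 lower, against 8.39% and 4.94% of all genes. Besides *Kit*, *Csf1r* and *Il7r*, this was *Csf2rb2*, the IL-3-specific form of the beta chain, at 446 and 401 in pDCs, against 49.4 and 37.4 in CDPs (3.27).

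The primary granule and the stem and progenitor lists held more members counted lower than higher in pDCs. Of 11 primary granule genes, 6 were counted lower in pDCs and 0 higher, with a median of −2.25. *Serpinb1a*, an inhibitor of neutrophil proteases, was at 9.70 and 11.7 in pDCs, against 239 and 268 in CDPs (−4.45). *Ctsg* (cathepsin G) was at 47.5 and 60.7 in pDCs, against 372 and 374 in CDPs (−2.77), and *Cst7*, a cystatin gene, at 9.57 and 9.33, against 85 and 84.8. Not every granule gene followed. *Elane*, which encodes neutrophil elastase and was chosen after its values were seen, was at 119.9 and 124 in pDCs and 97.1 and 98.4 in CDPs (0.31). Neutrophil markers moved in the same direction, 5 of 8 being counted lower and 0 higher, with a median of −3.13. Their summed level was 81.5 and 83.2 rescaled FPKM in pDCs, against 1038 and 404 in CDPs, and *Retnlg* was listed at 0 in both pDC libraries. The part of neutrophil transcripts in the granule result was not tested, and fewer cells of a type cannot be told apart from less RNA per cell in bulk libraries.

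Myeloid transcription factors split, with 2 of 9 counted higher, 2 lower and a median of 0.71. *Nfe2* was at 5.01 and 5.07 in pDCs, against 89.5 and 95.3 in CDPs (−3.95), and *Gfi1b*, a repressor gene of the erythroid and megakaryocyte lineages, at 1.23 and 1.36, against 39.5 and 26.5 (−3.86). *Cebpb* and *Cebpa*, C/EBP factor genes of myeloid cells, were instead higher in pDCs, at 82.2 and 71.6 and at 77.2 and 75.5, against 0.698 and 0.205 and 5.98 and 6.19 in CDPs. Their transcripts hold 67.2% and 62.6% GC, and transcripts of 60% GC or more had a median difference of 0.60 over all genes. The differences of *Cebpb* and *Cebpa* were 5.76 and 3.45. Both calls were kept in all 14 processing settings, centring on GC content and length among them.

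Of 20 stem and progenitor genes, 6 were counted lower, 1 higher, and the median was −1.47. *Cd34*, the sialomucin of stem and progenitor cells, had the widest gap of all genes lower in pDCs, with 3.89 and 3.54 in pDCs, against 418 and 439.7 in CDPs (−6.51). *Cd27* was at 17.3 and 14 in pDCs, against 211 and 183 in CDPs (−3.57), and *Adgrg1*, the adhesion receptor gene of stem cells also called Gpr56, at 17.1 and 14, against 184 and 191 (−3.52). *Hoxa5* was the member counted higher, at 18.4 and 19.1 in pDCs, against 0.358 and 0.149 in CDPs. *Myb* and *Meis1*, chosen after their values were seen, were not counted. *Myb* was at 110.2 and 111 in pDCs and 75.3 and 72.4 in CDPs, and *Meis1* at 16.1 and 15.6 and 30.8 and 39.3.

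DNA replication genes were lower in pDCs throughout. Of 27 compared, 20 were counted lower in pDCs and 0 higher, and the median was −2.74. For all 27 both pDC libraries lay below both CDP libraries, which also held for 5252 of all 11495 genes. *Fen1*, the flap endonuclease gene, was at 39.7 and 38.8 in pDCs, against 413 and 597 in CDPs (−3.63). The helicase subunit genes *Mcm3*, *Mcm6* and *Mcm7* were at 55.2 and 45, 88.4 and 82.4, and 79.3 and 80.7 in pDCs, against 541 and 638, 864 and 972, and 692 and 717 in CDPs. *Pcna*, the sliding clamp gene chosen after its values were seen, differed least, at 303 and 312 in pDCs and 517 and 566 in CDPs (−0.81). Replication transcripts were thus lower in pDCs but far from absent. Of 21 mitosis genes, 5 were counted lower and 0 higher (median −1.62). *Aurkb*, a mitotic kinase gene, was at 39.5 and 32.5 in pDCs, against 213 and 271 in CDPs (−2.71), and *Ccnb2*, a cyclin B gene, at 56.1 and 54.2, against 303 and 392 (−2.62). *Mki67*, the proliferation antigen gene chosen after its values were seen, had overlapping libraries at 73.8 and 63.4 in pDCs and 53.3 and 82.2 in CDPs. With differences centred within bins of transcript GC content and length, 18 of these 20 replication genes remained counted lower, with a list median of −2.69, and 0 of the mitosis genes, whose median was −1.84.

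Of 11 CDK inhibitor and G1 cyclin genes compared, 5 were counted lower in pDCs and 2 higher, with a median of −2.16. *Ccnd2* was at 11.5 and 10.9 in pDCs, against 263 and 353 in CDPs (−4.64), while *Ccnd1*, chosen after its values were seen, was at 334 and 326 in pDCs, against 37.3 and 28.6 in CDPs (3.30). Both encode D-type cyclins, the partners of CDK4 and CDK6. *Ccnd3*, a further D-type cyclin gene chosen after its values were seen, was counted lower. It was at 266 and 263 in pDCs, against 1210 and 1164 in CDPs (−2.16). *Cdk6* was at 23.6 and 21.1 in pDCs, against 238 and 370.0 in CDPs (−3.67). Of the CDK inhibitors, *Cdkn1b*, the gene of p27, was at 131 and 120.5 in pDCs, against 10.9 and 12.4 in CDPs (3.33), and *Cdkn1a*, the gene of p21, at 7.79 and 8.15, against 119 and 109 (−3.68). *Myc*, the growth factor-driven transcription factor gene, was at 5.66 and 6.15 in pDCs, against 206 and 288 in CDPs (−5.15). Ribosome biogenesis genes had 2 of 19 counted lower, *Myc* itself and *Wdr12*, and 0 higher, with a median of −1.31, and *Npm1*, the abundant nucleolar gene, was at 699 and 769 in pDCs and 684 and 778 in CDPs. Ribosomal protein genes went the other way as a group, with 11 of 81 counted higher, 2 lower and a median of 1.01. A different set, all shared genes named *Rpl* or *Rps* with a digit and so including *Rpl31-ps12*, held 15.4% and 16.2% of the total in pDCs. In CDPs it held 10.4% and 7.98%.

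Promoters of the cell cycle lists were read for the letters of sites known from such genes, the E2F site of genes of S phase (TTTNGCGC), the CHR element of genes of mitosis (TTTGAA) and the CCAAT box, on both strands. TTTNGCGC was in 9 of 27 replication windows (33.3%), against 2.57% of all 11870 windows, and in 5.03% of windows of genes counted lower in pDCs. TTTGAA was in 13 of 18 mitosis windows (72.2%), against 12.4% of all, and CCAAT in 16 of 18 (88.9%), against 38.5%. These shares describe gene classes that are known for the sites and carry no statement about binding in these cells. The windows of *Mcm3* and *Mcm6*, with TTTNGCGC in capitals, and of *Ccnb2*, with TTTGAA and CCAAT in capitals, are given from 5′ to 3′ in RefSeq (GRCm38.p6).
Mcm3, chr1:20820263-20820562, minus strand: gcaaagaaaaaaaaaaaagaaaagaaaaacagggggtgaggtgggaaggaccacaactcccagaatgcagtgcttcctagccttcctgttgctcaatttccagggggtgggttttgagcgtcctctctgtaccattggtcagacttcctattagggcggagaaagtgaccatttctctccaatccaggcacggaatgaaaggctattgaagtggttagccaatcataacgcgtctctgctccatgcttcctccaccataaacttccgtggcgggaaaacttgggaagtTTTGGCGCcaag
Mcm6, chr1:128359656-128359955, minus strand: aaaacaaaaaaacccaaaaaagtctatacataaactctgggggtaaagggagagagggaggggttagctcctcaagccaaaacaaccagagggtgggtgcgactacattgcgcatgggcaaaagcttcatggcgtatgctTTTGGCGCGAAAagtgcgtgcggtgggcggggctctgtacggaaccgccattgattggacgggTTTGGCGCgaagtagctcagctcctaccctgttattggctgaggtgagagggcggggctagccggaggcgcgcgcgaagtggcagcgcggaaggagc
Ccnb2, chr9:70421505-70421804, minus strand: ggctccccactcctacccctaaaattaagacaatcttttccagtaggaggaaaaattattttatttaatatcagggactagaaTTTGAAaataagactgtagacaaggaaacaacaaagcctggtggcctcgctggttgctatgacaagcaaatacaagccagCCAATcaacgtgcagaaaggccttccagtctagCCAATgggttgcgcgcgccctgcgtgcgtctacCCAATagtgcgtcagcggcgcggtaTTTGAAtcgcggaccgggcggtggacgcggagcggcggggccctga
*Mcm6* had 3 matches, of which a pair overlapped, *Mcm3* 1, and *Ccnb2* 5 over both patterns.

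Replication-dependent histone genes were also lower in pDCs, 34 of 60 being counted lower and 3 higher, with a median of −2.60. *Hist1h2ae* was at 2.54 and 3.03 in pDCs, against 182 and 249 in CDPs, and *Hist1h4d* at 0.731 and 2.76, against 98.2 and 117. Copies of these genes are nearly identical, so reads may be split among them, and most of their mRNAs carry no poly(A) tail, so their level also depends on a priming step that is not given in the sources used here.

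**Figure D3:**
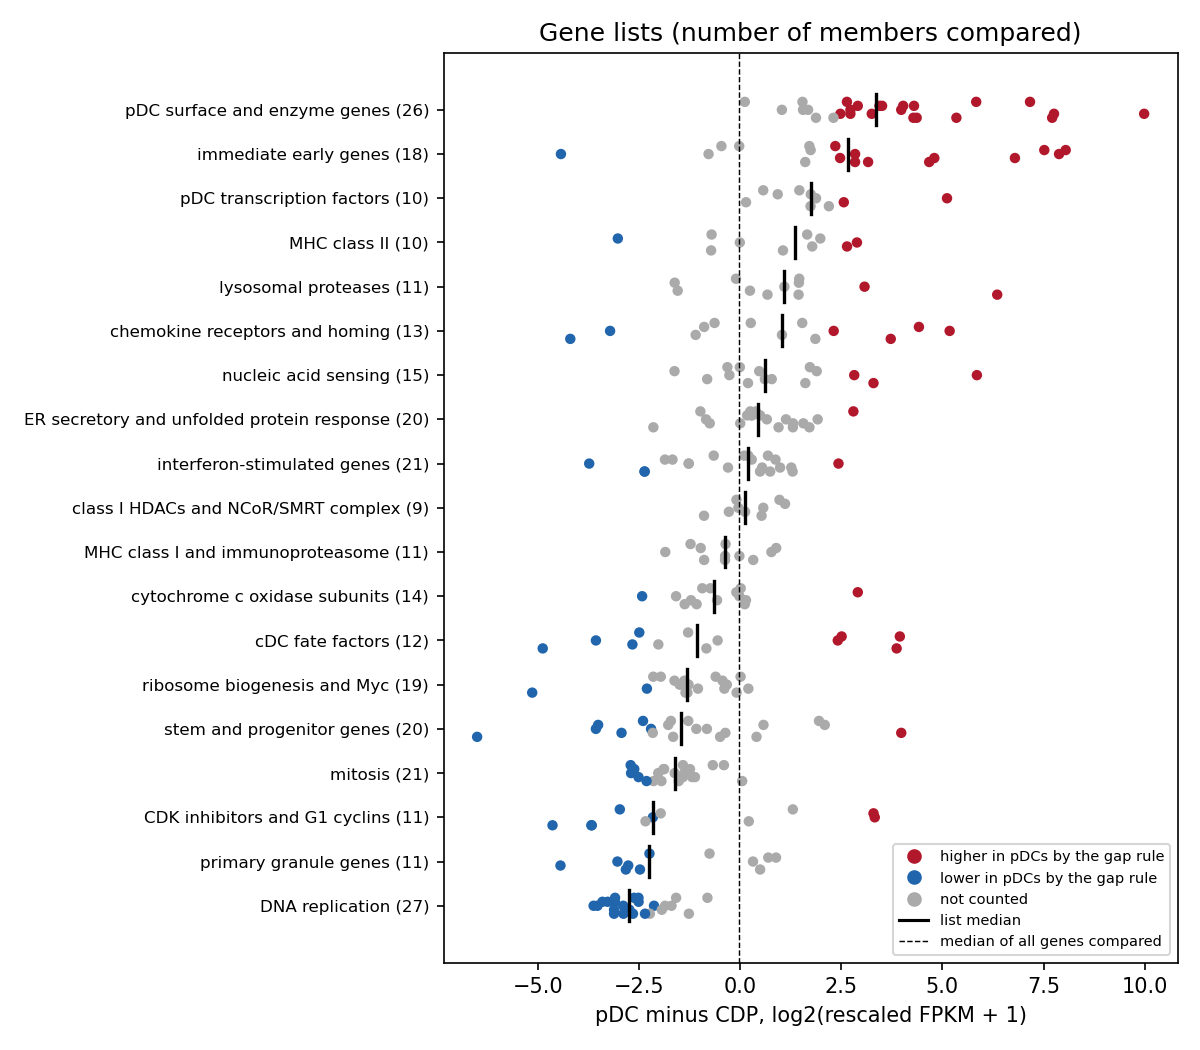
Difference of each member (pDC minus CDP, log2(rescaled FPKM + 1)) in 19 gene lists, with the number of members compared in parentheses. Red points are counted higher and blue points lower in pDCs, black bars are list medians, and the dashed line is the median of all genes; the lists run from pDC surface and enzyme genes (3.35) at the top to DNA replication (−2.74) at the bottom.

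The immediate early list had 11 of 18 members counted higher in pDCs, 1 lower and a median of 2.65. Many of its members, but not all, are genes that cells switch on within minutes of a stimulus and of handling. *Jund* and *Fosb*, AP-1 subunit genes, were at 799.9 and 776 and at 1402 and 1423 in pDCs, against 2.18 and 1.79 and 6.00 and 4.11 in CDPs. *Klf2*, a zinc finger factor gene of quiescence, was at 1250.3 and 1107 in pDCs, against 5.50 and 5.34 in CDPs (7.52), and *Ier5* at 461 and 428, against 3.12 and 2.92 (6.79). The list did not move as one. *Ier2*, chosen after its values were seen, was at 104 and 86.7 in pDCs and 153 and 177 in CDPs (−0.79), and *Hspa1a*, the inducible chaperone gene, was counted lower at 8.78 and 9.25 in pDCs, against 244 and 191 in CDPs. *Fosb* was at 51.6 and 79 and *Jund* at 5.60 and 4.49 in the control LMPPs, which shared the CDPs' lysis buffer. The list's transcripts had a median GC content of 55.2%, against 50.1% for all genes, and 10 of the 11 members remained counted higher after centring on GC content and length. Population and lysis cannot be told apart here.

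Beyond the lists, the 15 widest gaps on each side held further genes. Higher in pDCs were *Pltp*, which encodes the phospholipid transfer protein, at 813 and 804 in pDCs, against 0.716 and 1.56 in CDPs (8.59), and the co-receptor gene *Cd4*, at 364 and 415, against 0.412 and 0 (8.36). *Cd4* is known on pDCs, and *Cd8a* was also higher there (31 and 36.3, against 1.59 and 0.930 in CDPs). *Slamf9*, a SLAM family receptor gene, was at 265 and 259 in pDCs, against 0.466 and 0.149 in CDPs, *Trib1*, a pseudokinase gene, at 251 and 219, against 0.716 and 0.260, and *Tgfb1*, the cytokine gene, at 474 and 406, against 2.52 and 1.97. *Olfr1033*, annotated as an olfactory receptor gene, was at 398 and 451 in pDCs, against 0.0358 and 0.0372 in CDPs.

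Lower in pDCs were *Rab7b*, a small GTPase gene of late endosomes, at 1.27 and 1.06 in pDCs, against 97 and 101 in CDPs (−5.53), and *Dhrs3*, a retinaldehyde reductase gene, at 5.59 and 5.01, against 259 and 292 (−5.45). The tetraspanin genes *Cd81* and *Tspan32* were at 2.95 and 3.65 and at 2.11 and 1.95 in pDCs, against 139 and 197 and 107 and 86.9 in CDPs. *Egfl7*, a secreted EGF-domain gene that hosts miR-126, was at 3.51 and 3.67 in pDCs, against 145 and 167 in CDPs. *Ifitm1*, *Wfdc17*, *Ccdc15* and *Depp1* completed this side, with differences of −5.12, −5.24, −5.13 and −4.86. *Mia2* was listed at 0 in both pDC libraries, against 22.1 and 22.2 in CDPs.

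Reads of some genes can be shared with near-identical or overlapping copies. *Rpl31-ps12*, named as a ribosomal protein pseudogene, was at 3497 and 3584 in pDCs, against 0.931 and 4.30 in CDPs, and *Rps6*, chosen after its values were seen, at 58.5 and 62 in pDCs, against 1893 and 1385 in CDPs. *Tmem254b*, one of near-identical copies, was at 279.9 and 268 in pDCs and listed at 0 in both CDP libraries. Of the 30 genes with the widest gaps, 12 overlap another RefSeq gene model (*Klk1*, *Pltp*, *Ccr9*, *Slamf9* and *Rpl31-ps12* among those higher, and *Cd34*, *Cd81*, *Dhrs3*, *Egfl7*, *Ccdc15*, *Depp1* and *Mia2* among those lower), and whether strand was used in counting is not given. These genes are reported as uncertain to that extent.

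*Hdac3*, the gene floxed in these mice, did not separate the populations, with 83.7 and 80.2 in pDCs and 104 and 73.6 in CDPs (−0.10), a difference whose sign changed in 5 of 14 processing settings. Its product is the deacetylase that works within NCoR and SMRT corepressors. *Hdac1* was at 154 and 156 in pDCs, against 299 and 280.0 in CDPs (−0.90), *Hdac2* at 53.8 and 59.5, against 43.7 and 32.7 (0.57), and *Hdac8* at 10.5 and 9.36, against 13.4 and 11.2 (−0.28). *Ncor1*, a scaffold gene of the complex, was at 91.1 and 85.4 in pDCs and 37 and 44.2 in CDPs. Of 9 class I deacetylase and NCoR/SMRT genes, 0 were counted in either direction.

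Of 14 cytochrome c oxidase subunit genes, 1 was counted higher and 1 lower, against 8.39% and 4.94% of all genes. *Cox6a2*, the striated muscle isoform of subunit 6a, was at 1727 and 1745 in pDCs, against 244 and 219 in CDPs (2.91). *Cox6a1*, the isoform of most tissues, was at 502 and 446 in pDCs and 1097 and 1109 in CDPs, a difference of −1.22 that missed the gap. *Cox6b2* was the member counted lower (7.18 and 9.55 in pDCs, against 47.9 and 50.1 in CDPs), and it lost this call with a pseudocount of 5 and after centring on GC content and length. The list's median was −0.66, and −0.04 after that centring.

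Markers of other cell types were read in all 4 libraries. The T cell genes *Cd3d*, *Cd3e* and *Cd3g* did not reach 1 rescaled FPKM in both libraries of either population, although *Cd4* and *Cd8a* were higher in pDCs. *Lck*, a kinase gene of T cell receptor signalling, was counted lower (13.5 and 12.5 in pDCs, against 68.1 and 61.8 in CDPs, −2.23), a call lost in 3 of 14 processing settings. Erythroid markers summed to 575 and 825 in pDCs, against 113 and 142 in CDPs, and of 8 compared only *Hbb-bs* was counted higher (154 and 224 in pDCs, against 24.1 and 17.2 in CDPs). B cell markers summed to 83.8 and 89.1 in pDCs, against 147 and 152 in CDPs, nearly all of it *Cd79b*, and megakaryocyte markers to at most 5.46 in any library. Monocyte and macrophage markers summed to 2361 and 2295 in pDCs, against 1739 and 1486 in CDPs, with *Ms4a6c* alone of 6 counted (−2.63). NK cell markers had *Klrd1* counted higher and *Nkg7* lower of 3 (2.48 and −3.16), and basophil and mast cell markers 0 of 3 in either direction. Of early B-lineage genes, *Rag2* alone of 10 was counted (0.559 and 0.764 in pDCs, against 19.2 and 11.4 in CDPs), and *Dntt*, the terminal transferase gene, was at 243 and 266 in pDCs, against 1277 and 856 in CDPs (−2.04). Of cDC2 markers, *Cd209a*, *Clec10a* and *Mgl2* were counted higher in pDCs of 4 compared (3.21, 2.94 and 2.80), and of 4 cDC1 markers *Cadm1* alone (2.53). All 4 cDC1 markers had both pDC libraries above both CDP libraries (median 1.76), as had 4984 of all 11495 genes. The calls of *Mgl2* and *Cadm1* were each lost in 3 of 14 settings. *Xcr1*, the defining cDC1 receptor gene, stayed below 2 rescaled FPKM in all 4 libraries. The plasma cell genes *Mzb1* and *Jchain* were counted higher (4.73 and 3.27), whereas *Sdc1*, which encodes the plasma cell antigen CD138, was at 38.7 and 35.9 in pDCs and 175 and 127 in CDPs. The part of other cells in the differences was not tested.

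Set beside the control LMPPs, the genes followed separate courses. *Cd34* was at 1377 and 1450.4 in LMPPs, 418 and 439.7 in CDPs and 3.89 and 3.54 in pDCs, and *Kit* at 210.1 and 247, 31.6 and 39.5 and 3.81 and 3.27. *Mcm6* was at 819.5 and 748 in LMPPs, 864 and 972 in CDPs and 88.4 and 82.4 in pDCs, so that it separated pDCs from both progenitors. The transcripts of *Siglech*, *Cox6a2*, *Spib* and *H2-Aa* were higher in CDPs than in LMPPs and higher again in pDCs. *Cox6a2* was at 10.5 and 7.42 in LMPPs, 244 and 219 in CDPs and 1727 and 1745 in pDCs. *Id2*, *Batf3*, *Csf1r* and *Ccr7* instead peaked in CDPs. *Batf3* was at 0.605 and 0 in LMPPs, 42 and 43.1 in CDPs and 0.172 and 0.849 in pDCs, and *Id2* at 14.7 and 13.3, 186 and 226 and 16.2 and 16.5. *Klk1* and *Cd4* stayed below 4 rescaled FPKM in both progenitors. LMPP values come from another table, scaled over the 13759 genes listed in all 3, and the course from one population to the next is a description.

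**Figure D4:**
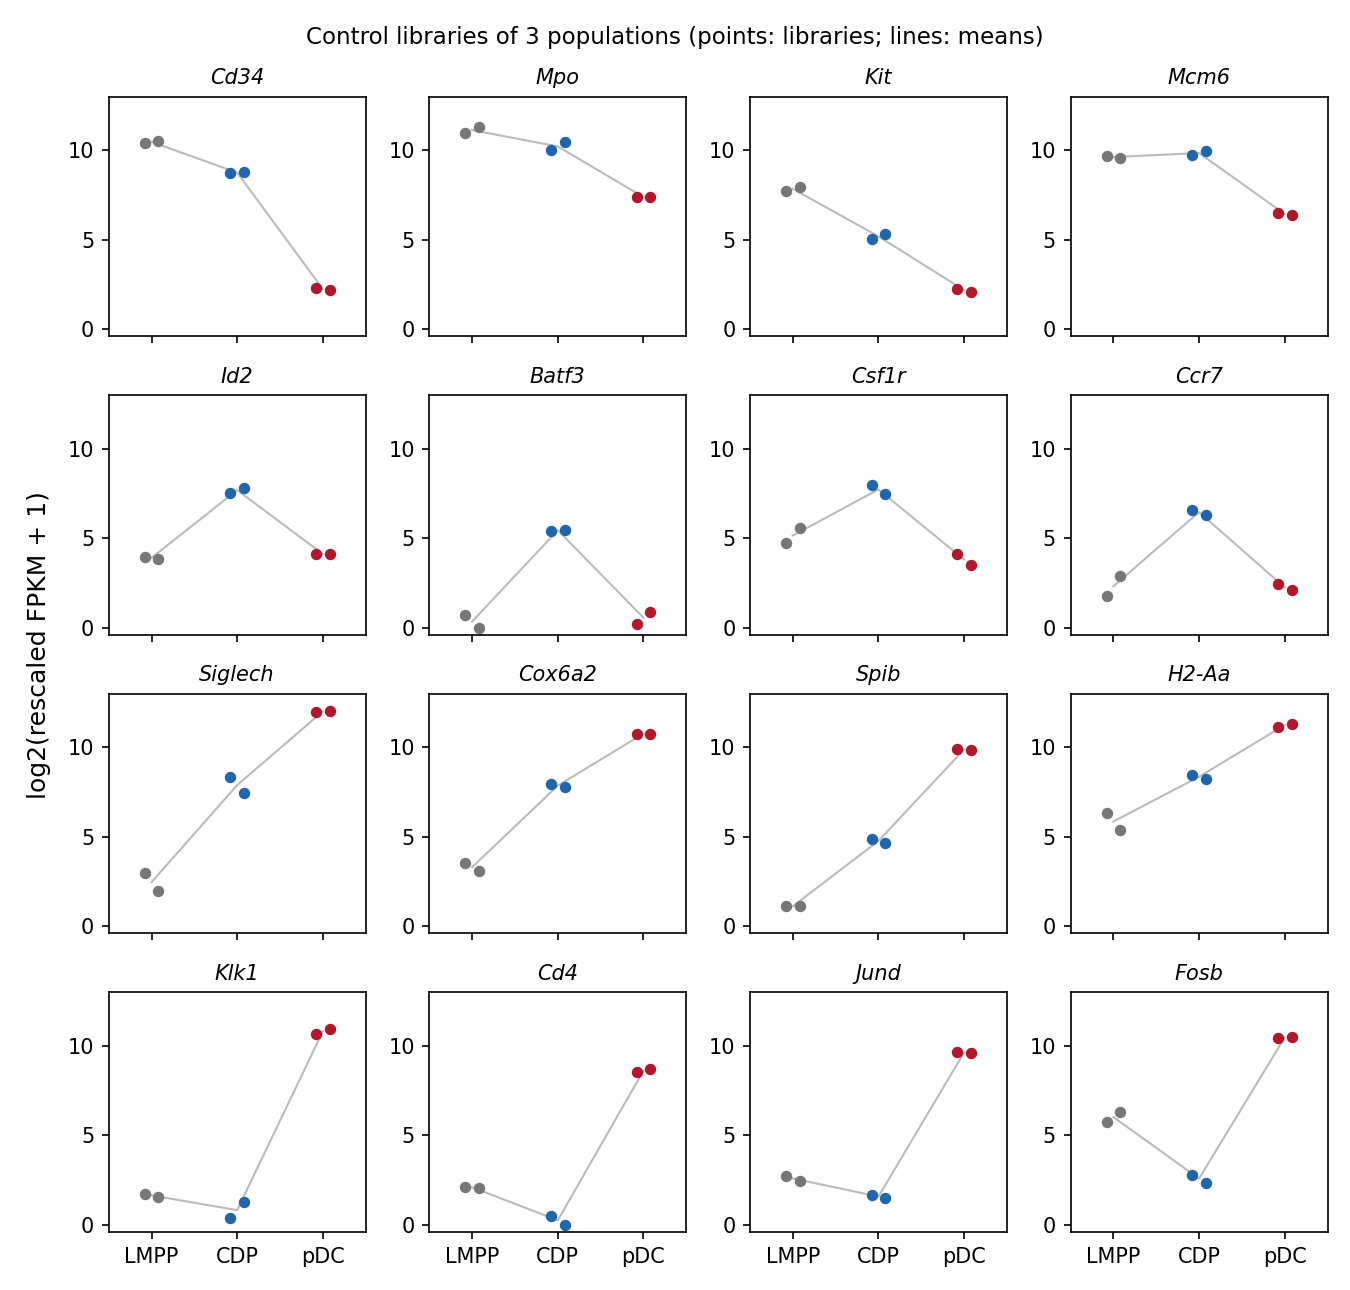
Level of 16 genes as log2(rescaled FPKM + 1) in control LMPPs (grey), CD115- CDPs (blue) and BM pDCs (red), 2 libraries each, with lines joining the means. The top row is lowest in pDCs, the second row highest in CDPs, the third row higher at each step, and *Klk1*, *Cd4*, *Jund* and *Fosb* in the bottom row are highest in pDCs.

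The difference between the populations also moved with properties of the transcripts. Below 56% GC the median difference of a GC class lay between −0.16 and −0.05, against 0.25 for transcripts of 56 to 60% GC and 0.60 at 60% or more. In that last class 19.6% of genes were counted higher, against 4.62% below 40% GC. By length, the median was −0.67 for transcripts under 1000 bases and 0.54 at 6000 bases or more, and 10.8% and 2.16% of genes in these classes were counted lower. LMPPs against CDPs, a comparison that shares the CDP libraries and has 1 lysis buffer, gave medians of −0.19 to 0.00 over the GC classes and, over length, 0.12 under 1000 bases and −0.49 at 6000 or more. After centring within deciles of both properties, 919 genes were counted higher and 496 lower, of which 768 and 401 were also counted without centring. This alternative was chosen after seeing the data.

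**Figure D5:**
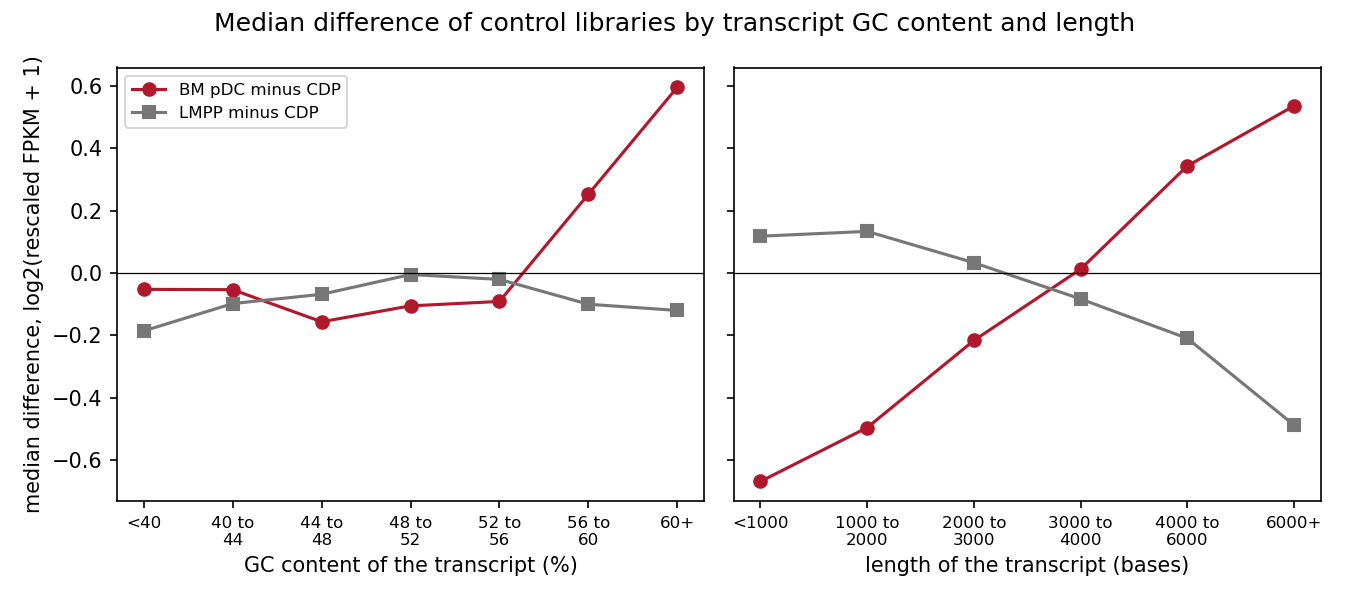
Median difference of log2(rescaled FPKM + 1) in classes of transcript GC content (left) and transcript length (right), for BM pDCs minus CD115- CDPs (red circles) and for LMPPs minus CD115- CDPs (grey squares). The pDC difference reaches 0.60 in the class of highest GC content, and runs from −0.67 for the shortest to 0.54 for the longest transcripts.

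The HDAC3-deficient libraries of the same tables gave a second reading of pDCs against CDPs, from Hdac3 fl/fl CreERT2 mice under the same tamoxifen course. There, 965 genes (8.55% of 11289 compared) were counted higher and 465 (4.12%) lower in pDCs. Of the higher genes 666 were shared with the controls (69.0% of each list), and of the lower genes 244 (43.0% of the control list and 52.5% of the HDAC3-deficient list). Of the control calls, 0 of the higher and 1 of the lower genes were counted in the opposite direction. *Batf3* and *Id2* turned round, with 10.7 and 15.1 and 132 and 216 rescaled FPKM in HDAC3-deficient pDCs, against 4.69 and 6.08 and 72.3 and 59.3 in HDAC3-deficient CDPs, differences of 1.11 and 1.35 where the controls had −4.89 and −3.57. The difference between the genotypes was not tested. Both pairs share the tables and their processing, so this overlap does not separate population from processing.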

How the data were processed

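RNA-seq of sorted cells was taken as deposited. Per the labels the processing tools were Bowtie2 and RSEM with mouse build mm10, whose versions and roles are not stated. For CD115- CDPs and LMPPs the authors deposited FPKM per gene, and for BM pDCs FPKM together with an expected count per gene. The 4 TPM columns of the pDC libraries were not used, nor were the authors' averages. Tables were joined by NCBI Gene ID. Of 16896 pDC rows and 16821 CDP rows, 14473 were shared and held 97.2% to 98.0% of the summed FPKM. Each library was scaled to the same total over shared rows, and a pseudocount of 1 was added before log2. Genes at 1 or more in both libraries of a population were compared.

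No test was run across tables that were normalized apart. Calls are 4-fold gaps between nearest libraries. The rule was tested on simulated data. The 2 pDC libraries differed by more than counting noise (chi-square per degree of freedom 4.61 over 12457 genes) and were kept apart. Transcript length and GC content were those of the longest protein-coding transcript in a GRCm38 annotation, found for 11465 of 11495 genes. Coordinates and promoters are RefSeq's.

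The members and the 35 gene lists were chosen with earlier results of these data known. The text names the 15 genes with the widest gap in each direction, and the marker, gate and class I *Hdac* genes. It also names up to 4 members per list and some further members of lists with 5 or fewer counted. Other genes are named too, most of them marked as picked with their values in view. A few genes that this rule names are not reported here. Of 427 distinct list genes, 416 were in both tables. Python 3.11.15, pandas 2.3.3, numpy 2.4.6, scipy 1.17.1 and matplotlib 3.10.9 were used. Alternatives covered scaling, pseudocount, filter, gap, leaving out each library, GC content, length and protein-coding genes.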

Additional observations from a re-analysis of the deposited data

Results flagged for a closer look

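Among the genes chosen for naming, *Cd22*, *Itgam*, *Id2*, *Batf3* and *Cd14* had opposite directions in the HDAC3-deficient and the control libraries. For each, pDCs and CDPs did not overlap in either genotype, and the difference was not tested. Other genes were not searched, so no share over all genes can be given. In controls, absence of overlap held for 4984 genes with pDCs higher and 5252 with pDCs lower, of 11495. *Cd22*, the gene of an inhibitory Siglec of B cells, differed between pDCs and CDPs by 4.25 in HDAC3-deficient mice, where it was at 399 and 398 rescaled FPKM in pDCs and 27.6 and 14.4 in CDPs, and by −1.62 in controls, where it was at 16.4 and 14 and 60.4 and 39. *Itgam*, which encodes the CD11b excluded by the pDC gate, differed by 1.69 in HDAC3-deficient mice, with 96.9 and 116 in pDCs and 37.9 and 27.1 in CDPs, and by −2.55 in controls, with 8.78 and 5.94 and 57.2 and 39.2. *Id2* differed by 1.35 in HDAC3-deficient mice, with 132 and 216 in pDCs and 72.3 and 59.3 in CDPs, and by −3.57 in controls, with 16.2 and 16.5 and 186 and 226. *Batf3* differed by 1.11 in HDAC3-deficient mice, with 10.7 and 15.1 in pDCs and 4.69 and 6.08 in CDPs, and by −4.89 in controls, with 0.172 and 0.849 and 42 and 43.1. *Cd14*, a co-receptor gene for lipopolysaccharide of monocytes, differed by −0.85 in HDAC3-deficient mice, with 1.75 and 1.31 in pDCs and 3.08 and 4.08 in CDPs, and by 0.93 in controls, with 4.11 and 4.03 and 1.16 and 2.25. *Cd14* was thus low in all of these libraries.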

How the results depend on the processing

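Of 965 genes counted higher and 568 lower in pDCs, a pseudocount of 5 left 582 and 296, a gap of 8-fold 377 and 148, and a gap of 2-fold gave 2417 and 2160. These 3 settings move the counts by their construction. The other scalings, filters and rules stayed within 1.5 times, from 677 (FPKM as deposited) to 1306 (pseudocount 0.1) higher and from 481 (centred within length deciles) to 799 (pseudocount 0.1) lower. Leaving out each replicate in turn gave 1003 to 1173 higher and 630 to 772 lower. The median of all genes moved from −0.04 to 0.07 with median-ratio scaling, to −0.11 with quantile normalization and to −0.27 in FPKM as deposited. Of single-gene values under the alternatives, 1772 stayed within the replicate spread, 384 moved and 0 of the genes counted changed sign. Calls were lost for 23 of 106 named genes: with centring on GC content and length for *Stat2*, *Ifitm3*, *Ccnb2*, *Cdc20*, *Aurkb*, *Ctsg*, *Ms4a6c* and *Ngp*, with a pseudocount of 5 for *Id3*, *Jchain*, *Wdr12*, *Oas2*, *Rag2*, *Ltf* and *Retnlg*, in FPKM as deposited for *Itgax*, in 2 settings for *Klrd1*, *Cox6b2* and *Birc5*, and in 3 for *Mgl2*, *Cadm1*, *Lck* and *Itgam*. With the replicate number as a block, added after seeing the data, so that both equally numbered pairs had to be 4-fold apart, 1009 genes were higher and 611 lower. Deviations of equally numbered libraries correlated at 0.02 across genes, and no label says that the numbers pair the libraries. Limits are the 2 libraries per population, the unknown CDP depth, and a lysis and table that change with the population.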
